A study of Homo sapiens with 29 samples.

Results

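The MEF2 family (MEF2A, MEF2B, MEF2C and MEF2D) was followed through the knockdown of ZNF148 in LHCN-M2 cells, a line of human myoblasts immortalized with telomerase and CDK4. The 4 genes were found through the RefSeq accession of each array probe. They were 4 of 22439 genes named in this way, and 6 probes measured them: 1 each for MEF2A (A_33_P3341676) and MEF2C (A_23_P320739), and 2 each for MEF2B (A_33_P3344405 and A_33_P3344406, here probe 1 and probe 2) and MEF2D (A_33_P3341656 and A_23_P51679, likewise). All 6 probes were well above background on all 29 arrays, and none was saturated on any.

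MEF2 proteins are transcription factors with a MADS box that bind short A/T-rich sites as dimers. In muscle they act with the myogenic bHLH factors of the MYOD family, which start the muscle programme, and they switch on genes of the contractile apparatus. Class IIa histone deacetylases bind MEF2 and hold its targets silent, and calcium-dependent kinases and p38 or ERK5 kinases release or activate it. ZNF148 is a zinc finger protein that binds G/C-rich sites, and the study asked what its loss does to myoblasts.

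Every group had received an siRNA at 20 nM, either against ZNF148 or nontargeting (siControl in the labels). Those in growth media were harvested after 24 h (subconfluent) and after 48 and 96 h (confluent). Others were harvested after 48 and 96 h in differentiation media. In the paper's differentiation experiments this replaced the growth media 2 days after transfection. The hours in the 2 media may thus not count from the same event. Each of the 10 groups had 3 arrays, apart from the nontargeting cells grown for 96 h, which had 2. The labels number these arrays, and they are taken here as replicate cultures. All groups come from 1 immortalized line, so the values describe that line.

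The levels are the deposited log2 signals, quantile-normalized over all arrays, on which 1 unit is a 2-fold difference. A probe's level is not set against another probe's. Of an array's probes, 41.5% to 56.5% were well above background, and 38714 probes were well above background on at least 2 arrays and were tested. All arrays at 24 h lay on 1 slide and 1 scan of their own, so 48 h is not set against 24 h within an siRNA. Replicate 1 of the nontargeting cells grown for 48 h stood apart from its group in markers of differentiating muscle. The mean level of 7 such genes ran from 8.50 to 14.80 in that group, with this replicate at the top. Over all probes, arrays within that group had r = 0.967 to 0.975, as did those of ZNF148 siRNA at 96 h in differentiation media (0.967 to 0.975). The mean level of these markers moves with MEF2C, so leaving this array out is a choice tied to the MEF2C values themselves. Where leaving it out ended or made a call on a MEF2 gene, or moved a called value of a named gene by over 1.5 times, the value over the other 28 arrays is also given. The knockdown itself was seen in all 5 settings: ZNF148 was 2.88-fold lower after 24 h, 4.22-fold and 4.92-fold lower at the later hours of growth media, and 5.06-fold and 6.68-fold lower in differentiation media (n = 3 against 3, or 3 against 2 where the nontargeting cells had 2 arrays). The ZNF148 levels of the 2 siRNAs did not overlap in any of them.

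The windows around annotated start sites (250 bases before and 50 after, RefSeq, GRCh38.p14) were searched on both strands for 3 motifs, since the 4 genes did not move alike. There were 12 windows for the family, 7 of MEF2C, 3 of MEF2A and 1 each of MEF2B and MEF2D. The MEF2 consensus (the A/T-rich site of the family itself) stood in 2 of the 12, against 2.99% of all 35116 windows. The E-box CAGCTG, a site of the MYOD family, stood in 3 (17.9% of all windows), and the C-rich box CCCTCCC, of the G/C-rich kind that ZNF148 binds, in 7 (26.6% of all windows). A match describes letters in these windows and is not a measured site. The 5 stretches below, 5′ to 3′ on the strand of the gene with the match in capitals, show the MEF2 consensus of MEF2A and MEF2C, the E-boxes of MEF2C and MEF2D and a C-rich box of MEF2C, which is read on the opposite strand. They lie at chr15:99565951-99565980 (plus strand), chr5:88824500-88824529, chr5:88884705-88884734, chr1:156490900-156490929 and chr5:88904259-88904288 (minus strand).
MEF2A, MEF2 consensus at -23 from the start site: ggcttgtctcCTAAAAATAGccccggtgtg
MEF2C, MEF2 consensus at -175 from the start site: atattccataTTATTTTTAAggtgttctca
MEF2C, E-box at -186 from the start site: ctgcttcctgtgCAGCTGaaactcttcagg
MEF2D, E-box at -230 from the start site: caaatggcctcaCAGCTGctacaggaagga
MEF2C, C-rich box at -172 from the start site: catagggggtcGGGAGGGgggaggggaggg
The stretch of the C-rich box holds further matches at -165 and -160, left in lower case. The MEF2 consensus, the E-box and the C-rich box of MEF2C shown here lie in windows of 3 different starts. Other windows held more than 1 motif: that of the MEF2A consensus, that of the MEF2C E-box shown here and that of MEF2D each held a C-rich box too. The windows of MEF2B and MEF2D held no MEF2 consensus, and those of MEF2A and MEF2B held no CAGCTG.

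MEF2C, the member that muscle uses from early in differentiation, rose most. At 24 h it stood at 8.90, 9.04 and 8.85 with nontargeting siRNA and at 9.25, 9.04 and 8.90 with ZNF148 siRNA. The groups overlapped, and the difference of 0.13 (SE 0.67, adjusted p = 0.961) did not pass the threshold of an adjusted p under 0.05 (0.13, SE 0.14, adjusted p = 0.591 over 28 arrays). The paper, in contrast, reports MEF2C as raised at this hour, on its arrays and by quantitative PCR. The PCR values are not part of these data.

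At 48 h in growth media MEF2C was 15.29, 15.15 and 15.19 with ZNF148 siRNA, against 13.82, 9.39 and 9.46 with nontargeting siRNA. All ZNF148 siRNA arrays lay above all nontargeting arrays, of which replicate 1 was the high one. The difference was 4.32 (SE 0.67, adjusted p = 1.19e-05), a 20.0-fold rise, and without replicate 1 it was 5.79 (SE 0.16, adjusted p = 5.98e-17). The arrays of this comparison were spread over 3 slides with 1 array of each siRNA on each, and the difference was 5.80, 1.33 and 5.83 within the slides, the low value on the slide of replicate 1.

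At 96 h in growth media MEF2C was 15.24, 15.15 and 15.19 with ZNF148 siRNA and 10.57 and 10.45 with nontargeting siRNA. The difference of 4.68 (SE 0.74, adjusted p = 1.96e-05) was a 25.7-fold rise, with no overlap. The fit pools the spread of all groups, so the SE of every MEF2C comparison takes in replicate 1 at 48 h in growth media. Without that array the SE of this difference was 0.16. In differentiation media the nontargeting levels after 48 h were 11.51, 11.12 and 10.60, against 15.29, 15.33 and 15.40 with ZNF148 siRNA (difference 4.26, SE 0.67, adjusted p = 9.91e-06). After 96 h they were 13.13, 13.25 and 13.28, against 15.23, 15.18 and 15.22 (difference 1.99, SE 0.67, adjusted p = 0.017). The 4 later ZNF148 siRNA groups thus held group means between 15.19 and 15.34 whatever the medium or hour, and each overlapped its neighbour in order, while the nontargeting means ran from 10.51 to 13.22.

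**Figure D1:**
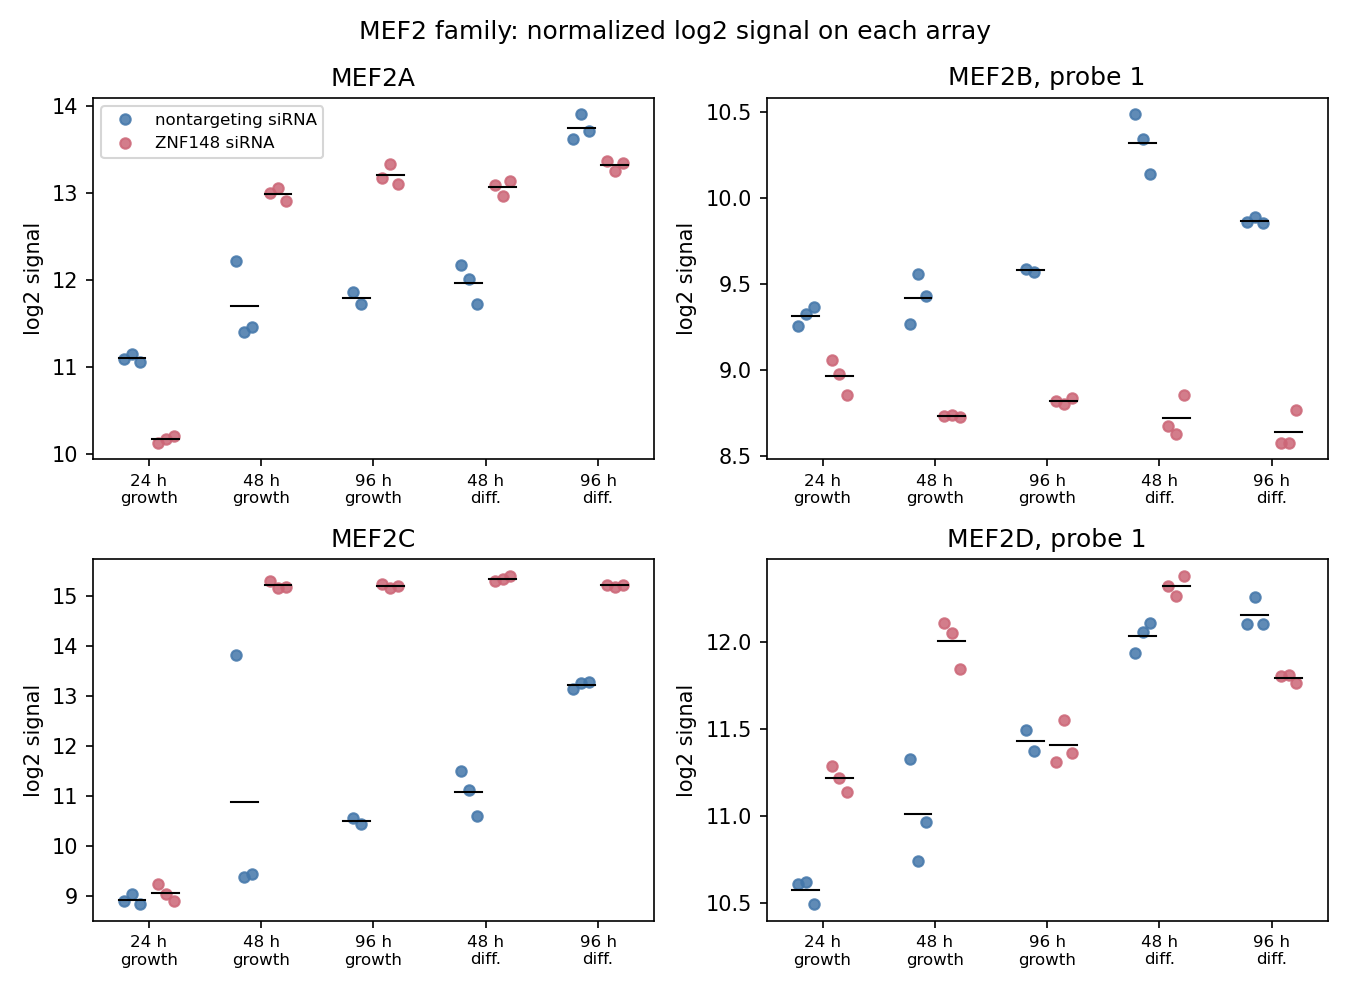
Normalized log2 signal (y axis, a scale of its own in each panel) of the 4 MEF2 genes on each array (points), with the group mean (black line), by hours and medium (x axis; diff., differentiation media) and siRNA (colour); n = 3 arrays a group, 2 for the nontargeting cells grown for 96 h. MEF2C sits between 15.15 and 15.40 on every ZNF148 siRNA array from 48 h on, and 1 nontargeting array at 48 h in growth media stands at 13.82.

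MEF2A, which is made in many tissues, moved in both directions. At 24 h its levels were 10.13, 10.18 and 10.22 with ZNF148 siRNA and 11.10, 11.16 and 11.06 with nontargeting siRNA, and it fell by 0.93 (SE 0.15, adjusted p = 6.89e-05). At 48 h in growth media the order was turned: 13.01, 13.07 and 12.92 with ZNF148 siRNA lay above 12.22, 11.41 and 11.47, the first again replicate 1. The difference was 1.30 (SE 0.15, adjusted p = 2.38e-07), or 1.56 (SE 0.11, adjusted p = 8.93e-11) over 28 arrays. At 96 h in growth media 13.18, 13.34 and 13.11 stood against 11.86 and 11.73 (difference 1.41, SE 0.17, adjusted p = 3.9e-07).

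In differentiation media MEF2A was again higher with ZNF148 siRNA after 48 h (13.10, 12.97 and 13.14 against 12.17, 12.02 and 11.73; difference 1.10, SE 0.15, adjusted p = 1.5e-06). After 96 h it was lower: 13.37, 13.25 and 13.34 against 13.62, 13.91 and 13.72. Every nontargeting array lay above every ZNF148 siRNA array there, and MEF2A fell by 0.43 (SE 0.15, adjusted p = 0.0218). That small fall missed the threshold when nontargeting replicate 2 or ZNF148 siRNA replicate 2 was left out (adjusted p = 0.1 and 0.0679) and with scaling to the 75th percentile (-0.27, adjusted p = 0.144). Nontargeting siRNA at 96 h in differentiation media was thereby the highest of the 10 MEF2A groups, at a mean of 13.75.

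MEF2B, best known from lymphocytes, was lower with ZNF148 siRNA in all 5 settings. Its probes cannot separate MEF2B from the readthrough transcript BORCS8-MEF2B. At 24 h probe 1 read 9.06, 8.97 and 8.85 with ZNF148 siRNA and 9.26, 9.32 and 9.37 with nontargeting siRNA, a fall by 0.35 (SE 0.09, adjusted p = 0.00388). At 48 h in growth media it read 8.73, 8.74 and 8.73 against 9.27, 9.56 and 9.43 (a fall by 0.69, SE 0.09, adjusted p = 8.11e-07). At 96 h in growth media it read 8.82, 8.80 and 8.84 against 9.59 and 9.57 (a fall by 0.76, SE 0.10, adjusted p = 1.03e-06). Neither siRNA's arrays reached into the other's range in any of these.

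The MEF2B falls were larger in differentiation media. After 48 h probe 1 read 8.68, 8.63 and 8.86 with ZNF148 siRNA and 10.49, 10.34 and 10.14 with nontargeting siRNA, and it fell by 1.61 (SE 0.09, adjusted p = 7.99e-13). After 96 h 8.58, 8.58 and 8.77 stood against 9.86, 9.89 and 9.86 (a fall by 1.23, SE 0.09, adjusted p = 1.28e-10). Probe 2 moved alike: it was 1.52-fold and 1.49-fold lower at the later hours of growth media and 2.83-fold and 2.30-fold lower in differentiation media, all past the threshold, while its -0.37 at 24 h did not pass (SE 0.14, adjusted p = 0.0642). Over 29 arrays the 2 probes had r = 0.97.

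MEF2D, the member present in proliferating myoblasts, depended on the probe. Probe 1 rose at 24 h, from 10.61, 10.62 and 10.49 to 11.29, 11.22 and 11.14 (difference 0.64, SE 0.11, adjusted p = 0.000121). It also rose at 48 h in growth media, to 12.11, 12.05 and 11.84 from 11.33, 10.74 and 10.97 (difference 0.99, SE 0.11, adjusted p = 1.24e-07; 1.15, SE 0.09, over 28 arrays). At 96 h in growth media the groups overlapped, with 11.31, 11.55 and 11.36 against 11.49 and 11.37 (difference -0.03, SE 0.12, adjusted p = 0.92).

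In differentiation media probe 1 of MEF2D was higher after 48 h (12.32, 12.26 and 12.38 against 11.93, 12.06 and 12.11; difference 0.29, SE 0.11, adjusted p = 0.0295). It was lower after 96 h (11.80, 11.81 and 11.76 against 12.10, 12.26 and 12.10; a fall by 0.36, SE 0.11, adjusted p = 0.0079). The rise after 48 h missed the threshold in 4 of the 6 fits that left out 1 of its arrays (adjusted p up to 0.111). Probe 2 kept group means between 10.65 and 11.18 and passed in 1 of the 5 settings: after 48 h in differentiation media it read 10.80, 10.67 and 10.72 with ZNF148 siRNA and 11.25, 11.04 and 11.26 with nontargeting siRNA, and it fell by 0.45 (SE 0.12, adjusted p = 0.00311). In that setting the 2 probes moved in opposite directions. Over 29 arrays they had r = 0.24, although both are annotated to the same MEF2D transcript, and no MEF2D rise with ZNF148 siRNA passed for both.

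**Figure D2:**
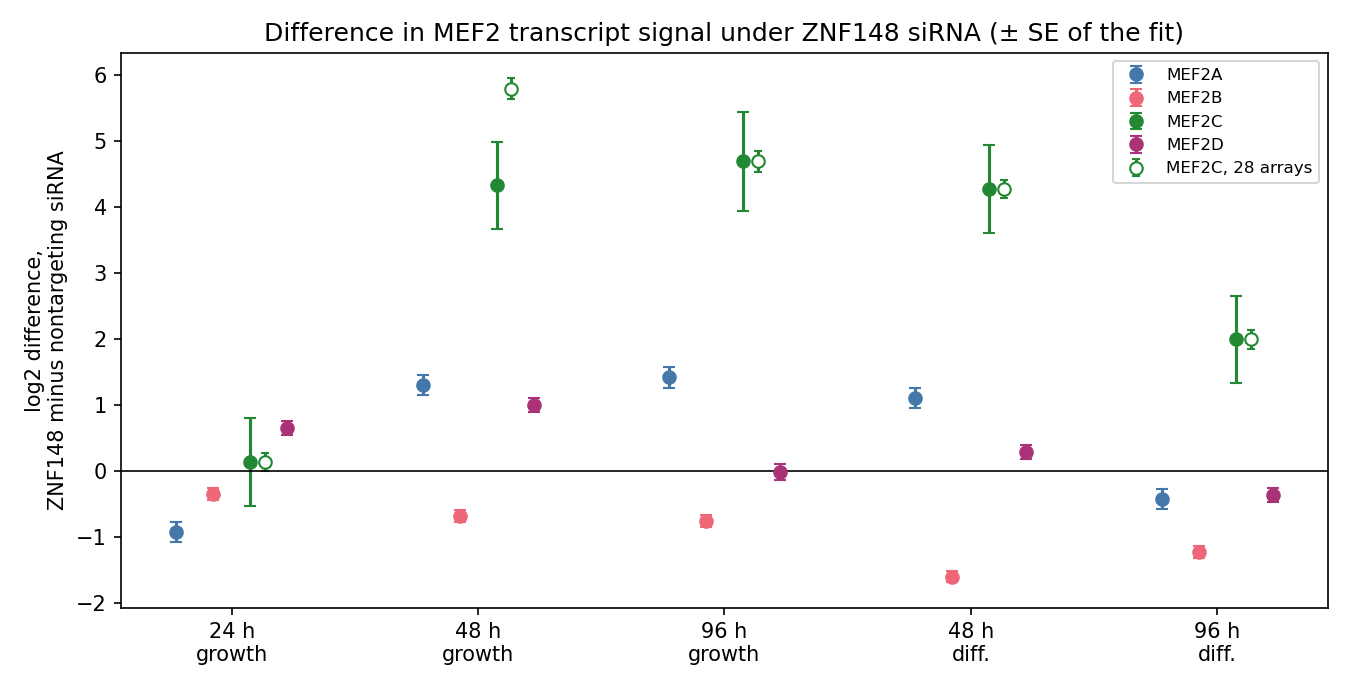
Log2 difference, ZNF148 minus nontargeting siRNA (y axis), of the 4 MEF2 genes by hours and medium (x axis); bars show ± SE of the fit, MEF2B and MEF2D are shown by probe 1, and open points show MEF2C over 28 arrays. MEF2C lies at 4.26 to 4.68 in 3 settings and at 0.13 at 24 h, and MEF2B lies below 0 in all 5.

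**Figure D3:**
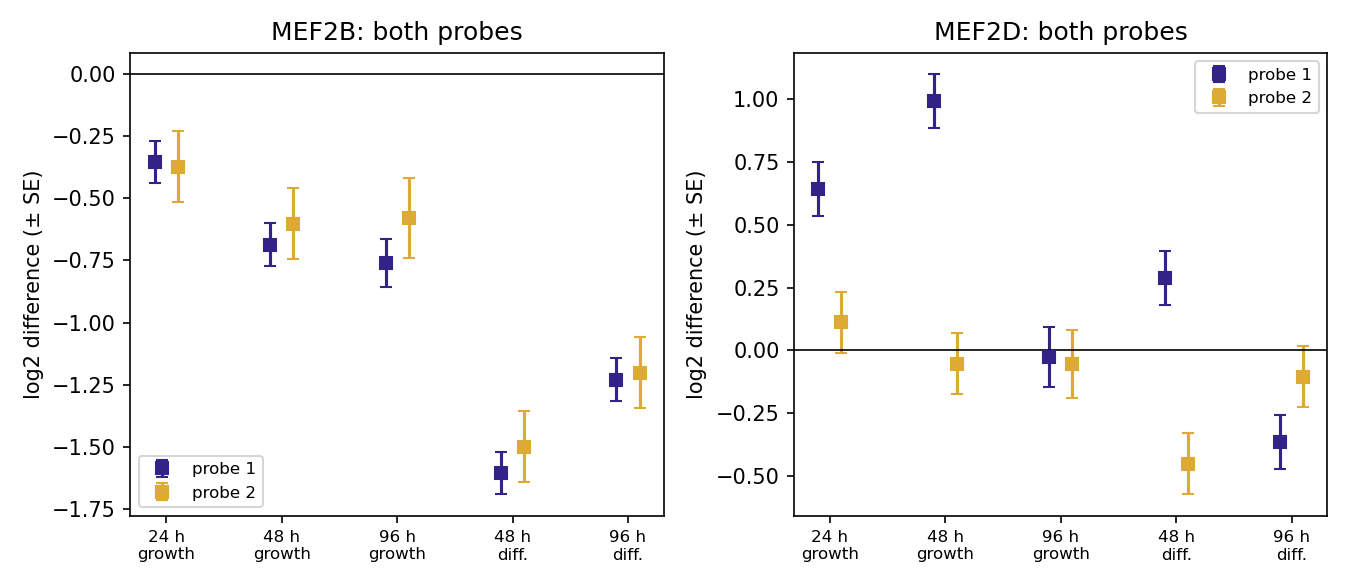
Log2 difference, ZNF148 minus nontargeting siRNA (y axis, ± SE), of both MEF2B probes (left) and both MEF2D probes (right) by hours and medium (x axis). The MEF2B probes fall together, whereas MEF2D probe 1 stands at 0.99 and probe 2 at -0.05 at 48 h in growth media.

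With each gene taken by its brighter probe, 1 of the 4 rose and 2 fell at 24 h, where 11.0% of all 38714 probes were higher and 12.7% lower. At 48 h in growth media 3 rose and 1 fell (21.0% and 24.3% of all probes). At 96 h in growth media 2 rose and 1 fell (20.9% and 23.2%). After 48 h in differentiation media 3 rose and 1 fell (24.4% and 28.4%), and after 96 h there 1 rose and 3 fell (21.0% and 27.2%). Bulk RNA cannot tell a change in the number of cells that hold a transcript from a change in each cell. The sign of each difference that passed was the same on every slide that held both siRNAs, for the probe that stands for its gene. At 24 h and at 96 h in growth media only 1 slide held both. At 24 h that slide held every array, so the sign there could not differ.

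**Figure D4:**
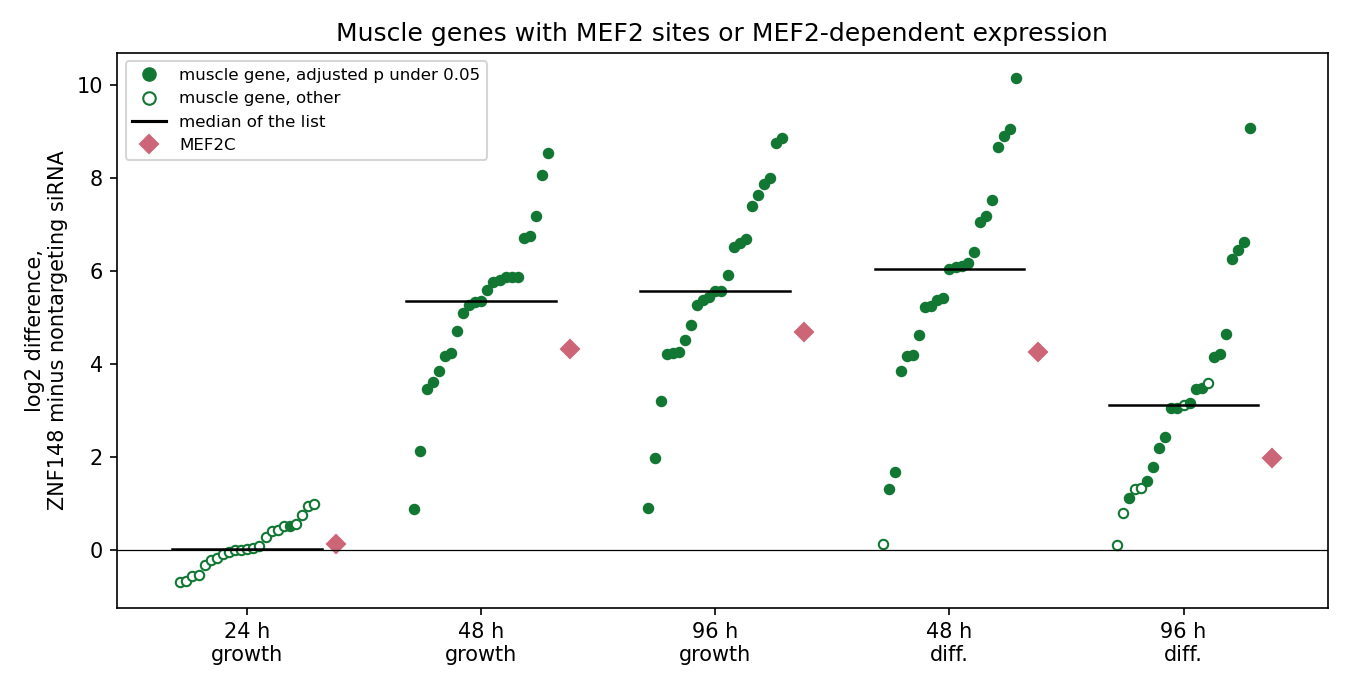
Log2 difference, ZNF148 minus nontargeting siRNA (y axis), of 23 muscle genes with known MEF2 sites or MEF2-dependent expression, in order of size within each setting (x axis, hours and medium); filled points passed an adjusted p under 0.05, the line is the median and the diamond is MEF2C. The median lies between 3.12 and 6.05 in the later settings, and at 24 h 9 of the 23 genes were not well above background on any array.

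The effects were then compared between settings, as differences of the 2 log2 differences. Between 24 and 48 h in growth media the effect changed by 2.22 for MEF2A (SE 0.21, adjusted p = 4.31e-08), by 4.19 for MEF2C (SE 0.94, adjusted p = 0.00125; 5.65, SE 0.21, over 28 arrays) and by -0.33 for MEF2B (SE 0.12, adjusted p = 0.0384). The MEF2B change missed the threshold with normexp background correction (-0.28, adjusted p = 0.12). So 3 of the 4 genes passed there, against 34.7% of all probes, and MEF2D did not (0.35, SE 0.15, adjusted p = 0.0867; 0.51, adjusted p = 0.00245, over 28 arrays). From 24 to 96 h all 4 passed (36.2% of all probes), with changes of 2.34 for MEF2A, 4.55 for MEF2C, -0.41 for MEF2B (-0.31, adjusted p = 0.0998, with normexp) and -0.67 for MEF2D. Each of these sets arrays of 1 slide and scan against those of the other 3, although each effect is a difference between arrays of its own time. The cells were also subconfluent at 24 h and confluent later, which cannot be told apart from time.

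Between 48 and 96 h in growth media 1 gene passed (11.0% of all probes): the MEF2D effect was smaller by 1.02 at 96 h (-1.02, SE 0.16, adjusted p = 0.000205). Over 28 arrays MEF2C passed too, and turned its sign, from 0.36 (adjusted p = 0.895) to -1.10 (SE 0.22, adjusted p = 0.00155). Between 48 and 96 h in differentiation media the effect moved by -1.52 for MEF2A (SE 0.21, adjusted p = 6.69e-06), by -0.65 for MEF2D (SE 0.15, adjusted p = 0.00198) and by 0.38 for MEF2B (SE 0.12, adjusted p = 0.0204; 0.29, adjusted p = 0.0985, with normexp). Thus 3 of 4 passed, against 32.9% of all probes. MEF2C moved by -2.28 (SE 0.94, adjusted p = 0.0709), and by as much with an SE of 0.20 over 28 arrays (adjusted p = 1.66e-08).

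Between the media at 48 h, 2 genes passed (31.7% of all probes). MEF2B had a further fall by 0.92 in differentiation media (SE 0.12, adjusted p = 3.52e-06), and the MEF2D effect was 0.70 smaller (-0.70, SE 0.15, adjusted p = 0.00101). At 96 h 2 passed (24.2% of all probes), MEF2A with -1.84 (SE 0.22, adjusted p = 2.91e-06) and MEF2B with -0.47 (SE 0.13, adjusted p = 0.0103). MEF2C stood at -0.06 at 48 h and -2.69 at 96 h (adjusted p = 0.981 and 0.0549). Over 28 arrays all 4 genes passed at both hours, with MEF2C at -1.52 and -2.69 (adjusted p = 8.02e-06 and 6.47e-09) and with MEF2D at 96 h close to the threshold (adjusted p = 0.0499).

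The media were then compared in nontargeting cells. Time since transfection may differ between the media, and it cannot then be told apart from the medium. At 96 h all 4 genes, each by its brighter probe, were higher in differentiation than in growth media (33.9% of all probes passed): MEF2C by 2.71 (SE 0.74, adjusted p = 0.00659), MEF2A by 1.95 (SE 0.17, adjusted p = 6.74e-09), MEF2D by 0.72 (SE 0.12, adjusted p = 6.13e-05) and MEF2B by 0.29 (SE 0.10, adjusted p = 0.0237). The MEF2C levels of 13.13 to 13.28 there stood clear of the 10.45 and 10.57 in growth media. MEF2B at 96 h missed the threshold with scaling to the 75th percentile (0.21, adjusted p = 0.0877), as did its probe 2 (0.40, adjusted p = 0.062).

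At 48 h 2 of the 4 were higher in nontargeting cells in differentiation media (38.6% of all probes), MEF2D by 1.02 (SE 0.11, adjusted p = 9.08e-08) and MEF2B by 0.91 (SE 0.09, adjusted p = 1.76e-08). MEF2A and MEF2C were at 0.27 and 0.19 (adjusted p = 0.168 and 0.896) with replicate 1 in the growth media group. Without it they were at 0.53 and 1.65 (adjusted p = 0.000313 and 3.1e-08), and all 4 passed. Probe 2 of MEF2D was also higher at 48 h, by 0.36 (SE 0.12, adjusted p = 0.0208), but not at 96 h (0.12, adjusted p = 0.559).

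With ZNF148 siRNA at 48 h limma called none of the 4 (13.5% of all probes), while 1 had an unadjusted p under 0.05, namely MEF2D at 0.32 (SE 0.11, adjusted p = 0.0563; adjusted p = 0.00989 over 28 arrays). At 96 h MEF2D alone passed, at 0.38 (SE 0.11, adjusted p = 0.0127; 21.7% of all probes). Probe 2 of MEF2D did not pass there (0.07, adjusted p = 0.76). MEF2C differed by 0.13 and 0.01 between the media and MEF2A by 0.07 and 0.12, neither past the threshold.

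Time within a medium was compared next. In nontargeting cells from 48 to 96 h in growth media limma called none of the 4 (1.55% of all probes) and 1 had an unadjusted p under 0.05. Over 28 arrays MEF2C was 1.09 higher at 96 h (adjusted p = 0.000513) and MEF2D 0.58 higher (adjusted p = 0.00134), whereas the MEF2C value with replicate 1 was -0.38 (adjusted p = 0.942). In differentiation media 3 of 4 passed (32.3% of all probes): MEF2C rose by 2.14 (SE 0.67, adjusted p = 0.0161), MEF2A rose by 1.77 (SE 0.15, adjusted p = 9.44e-09) and MEF2B fell by 0.46 (SE 0.09, adjusted p = 0.000252). With ZNF148 siRNA MEF2D was the 1 gene to pass in each medium: it fell by 0.60 from 48 to 96 h in growth media (SE 0.11, adjusted p = 0.000295; 21.6% of all probes) and by 0.53 in differentiation media (SE 0.11, adjusted p = 0.000678; 28.1% of all probes). There MEF2A, at 0.25, had an adjusted p = 0.242, or 0.0494 over 28 arrays. Probe 2 of MEF2D passed in neither medium with ZNF148 siRNA (-0.12 in growth and -0.01 in differentiation media, adjusted p = 0.61 and 0.983). In nontargeting cells in differentiation media, probe 2 of MEF2B missed the threshold (-0.36, adjusted p = 0.0594), and probe 2 of MEF2D passed (-0.35, adjusted p = 0.0286).

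Over all 29 arrays, as a description, MEF2A and MEF2C had r = 0.88, and MEF2D (probe 1) had r = 0.69 with MEF2A and 0.68 with MEF2C. Probe 2 of MEF2D had r = -0.08 with MEF2A and -0.16 with MEF2C. MEF2B (probe 1) had r = -0.50 with MEF2C and -0.16 with MEF2A. These arrays share groups and normalization. Among 18397 other genes, the 5 most like MEF2C in level were CAVIN4 (r = 0.998), NCAM1, a surface molecule of myoblasts and myotubes (0.997), KLHL40, a protein of the thin filament (0.996), and TRIM54 and TNNC2, the last the fast troponin C (both 0.995). The 5 most like MEF2A were the potassium channels KCNJ12 and KCNJ18 (r = 0.975 and 0.974), TNFAIP1, TSPYL4 and AKAP9 (0.972 to 0.965). KCNJ12 and KCNJ18 are near-identical copies whose probes may read each other. ALKBH2 led for MEF2B (r = 0.979), before HEXA, SELENOM, ZNF446 and LINC02035, and DOK3 for MEF2D (0.944), before ARHGAP6, CSTF2T, ZNRF1 and NCOA1.

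Muscle genes with known MEF2 sites or MEF2-dependent expression rose in growth media from 48 h on and, for most, in differentiation media. Of 24 listed, 23 had a tested probe and LMOD3 was not named on the array. At 24 h 1 rose (PPARGC1A, a regulator of mitochondrial genes, by 0.53), and 9 of the 23 were not well above background on any array of either group, so that they had no measured difference there. At 48 and 96 h in growth media all 23 tested rose, with medians of 5.35 and 5.57 (5.44 at 96 h with 4 genes set to the bound that their background allows). In differentiation media 22 rose after 48 h and 17 after 96 h, with medians of 6.05 (the same with 3 genes at their bound) and 3.12, and none fell at either hour. PPARGC1A did not pass at either hour, and CKM, MYH3, ACTA1, MYOZ2 and SMYD1 did not pass after 96 h. The shares of all probes that rose were 21.0% and 20.9% in growth media and 24.4% and 21.0% in differentiation media. The median over all probes lay at -0.05 or nearer to 0 in every setting. Without replicate 1 the counts that rose were 5 (1 fell), 23, 23, 22 and 22, and the median at 48 h in growth media was 7.56.

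CKM, the muscle creatine kinase, rose by 8.06 and 7.63 in growth media and by 7.18 after 48 h in differentiation media, and stood at 3.60 after 96 h there (adjusted p = 0.0575). At 48 h in growth media, CKM was 11.45 higher over 28 arrays, KLHL40 11.98, MYL1 10.01 and MYOM1 9.18. KLHL40 rose by 8.53, 7.99, 9.04 and 4.16 in the later settings. MYL1, a myosin light chain, rose by 7.17, 7.39, 8.89 and 6.62, and MYOM1, a protein of the M band, by 6.70, 7.87, 7.52 and 6.27. XIRP2, an actin-binding protein, was not well above background on any nontargeting array at 96 h in growth media or 48 h in differentiation media. It was at least 132-fold higher with ZNF148 siRNA in the first (adjusted p = 1.24e-05) and at least 331-fold in the second (adjusted p = 2.07e-07). These bounds set the ZNF148 siRNA mean against the lowest signal well above background on each nontargeting array. MYOZ1, a protein of the Z disc, was likewise higher by at least 162-fold in the first and by at least 200.3-fold in the second (adjusted p = 1.71e-06 and 2.65e-07).

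The mean level of the 7 genes that mark differentiating muscle moved with MEF2C. They did not move by like amounts: at 48 h in growth media CKM rose by 8.06 (11.45 over 28 arrays) and MYMK by 0.34. At 24 h 1 or 2 of the 7 were above background throughout a group, and their mean level was 5.12 to 5.44 with nontargeting and 5.24 to 5.30 with ZNF148 siRNA. From 48 h on all 7 were above background on every array. Their mean level was 15.89 to 16.54 over all later ZNF148 siRNA arrays, against 10.86 to 10.89 in the nontargeting cells grown for 96 h and 10.82 to 12.33 and 14.16 to 14.36 at 48 and 96 h in differentiation media. Of 6 myoblast markers, 5 or 6 were above background throughout each group. At 48 h in growth media MYF5 fell by 1.63 and MYOD1 rose by 1.32, while PAX7 did not pass. DES, CDH15 and NCAM1 rose by 2.14, 2.48 and 4.33 there (2.80, 3.13 and 5.68 over 28 arrays). The part of the share of differentiating cells in the MEF2C values was not tested.

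Among the myogenic bHLH factors that pair with MEF2, MYOG, which acts late, rose by 4.06 and 4.39 at 48 and 96 h in growth media and by 2.88 after 48 h in differentiation media (5.26 at 48 h in growth media over 28 arrays). MYOD1 rose by 1.13 at 24 h (adjusted p = 5.16e-07), where MEF2C did not pass. It also rose by 1.32 at 48 h in growth media, and it stood at -0.28 after 96 h in differentiation media (adjusted p = 0.0655). MYF5, an early factor, fell by 1.63 and 1.80 at 48 and 96 h in growth media, and MYF6 rose in all 5 settings, by 0.47 to 2.25. The E proteins TCF4 and TCF12, which dimerize with them, both fell by 1.47 after 96 h in differentiation media. Over the hours of growth media, 4, 4 and 3 of the 7 genes rose, beside 11.0%, 21.0% and 20.9% of all probes, and 1, 1 and 3 fell, beside 12.7%, 24.3% and 23.2%. In differentiation media 3 and then 1 rose, beside 24.4% and 21.0%, and 4 and then 3 fell, beside 28.4% and 27.2%. The same shares of all probes stand beside the counts of the lists that follow, and with lists this short nothing particular is read from a count. Over 28 arrays 2 of these 7 rose and 4 fell after 96 h in differentiation media, with 19131 probes called there in place of 18679.

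Of 7 repressors of MEF2, 2 rose at 24 h and none fell, and in the later settings 4 or 5 fell (23.2% to 28.4% of all probes) and 1 or 2 rose (20.9% to 24.4%). HDAC5, a class IIa deacetylase, rose by 0.46 at 24 h (adjusted p = 0.00342) and then fell by 0.82 and 1.99 in growth media and by 1.54 and 2.95 in differentiation media. HDAC4 rose by 1.01 at 96 h in growth media (adjusted p = 2.43e-05) and by 0.58 after 96 h in differentiation media. HDAC9 rose by 3.78 and 2.95 in differentiation media, where it was above background on 1 of 3 nontargeting arrays at each hour and on all 3 ZNF148 siRNA arrays. HDAC3, a partner of the class IIa enzymes, fell by 0.53 to 0.84 in the 4 later settings.

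Of 10 coactivators, 4, 6 and 4 rose over the hours of growth media (11.0%, 21.0% and 20.9% of all probes) and 1 fell at each (12.7%, 24.3% and 23.2%). In differentiation media 4 and then 2 rose (24.4% and 21.0%), and 3 and then 4 fell (28.4% and 27.2%). Over 28 arrays 5 rose at 24 h and 3 rose after 96 h in differentiation media. VGLL2, a cofactor of TEAD factors in muscle, rose by 4.01 to 4.99 in the 4 later settings and stood at 1.44 at 24 h (adjusted p = 0.0721). At 48 h in growth media it was 5.41 higher over 28 arrays. TEAD4 rose by 1.24 at 24 h, by 2.37 and 2.63 later in growth media and by 1.34 after 48 h in differentiation media. MAMSTR, which binds MEF2 and raises its activity, fell by 0.80 at 24 h, rose by 1.17 at 48 h in growth media and fell by 1.01 and 2.00 in differentiation media. KAT2B, an acetyltransferase, rose by 1.18 and 0.99 in differentiation media.

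Of 19 tested kinases and phosphatase subunits that act on MEF2 or on its deacetylases, 5, 9 and 5 rose over the hours of growth media (11.0%, 21.0% and 20.9% of all probes) and 6, 4 and 7 fell (12.7%, 24.3% and 23.2%). In differentiation media 8 and then 6 rose (24.4% and 21.0%), and 7 fell at each hour (28.4% and 27.2%). Over 28 arrays 8 rose at 48 h in growth media, and 10 and then 7 rose in differentiation media. MAPK7 (ERK5) fell by 0.40 at 24 h and by 1.14 to 1.54 later, and MAPK11 (p38 beta) fell by 0.60 at 24 h and by 1.26 to 1.87 later. CAMK2B, a calcium/calmodulin-dependent kinase, rose by 4.27 at 48 h in growth media and by 4.28 after 48 h in differentiation media (5.62 at 48 h in growth media over 28 arrays). CAMK1 fell by 2.12 and 1.61 at 48 and 96 h in growth media. CAMK4 was on the array but too dim to be tested.

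Splicing of MEF2 transcripts differs between muscle and other tissues, and which forms each probe here reads could not be told. Of 7 regulators listed for it, 2, 4 and 3 rose over the hours of growth media (11.0%, 21.0% and 20.9% of all probes) and 1, 2 and 3 fell (12.7%, 24.3% and 23.2%). In differentiation media 4 and then 1 rose (24.4% and 21.0%), and 3 fell at each hour (28.4% and 27.2%). Over 28 arrays 2 fell at 24 h and 3 rose after 96 h in differentiation media. RBFOX1 rose by 2.42 to 3.50 in the 4 later settings, and RBM24 by 0.86 at 24 h and by 1.72 to 2.69 in 3 later settings. SRPK3, a kinase of splicing factors in muscle, rose by 3.62 to 5.01 in 3 of them, with 1.53 after 96 h in differentiation media (adjusted p = 0.0712). Over 28 arrays RBFOX1, RBM24 and SRPK3 were 4.36, 3.32 and 6.08 higher at 48 h in growth media. PTBP1, which represses muscle exons, rose by 0.51 at 24 h and fell by 0.98 to 1.53 thereafter, and MBNL1 fell by 0.83 to 1.33 in all 5 settings.

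Of 4 tested immediate early genes that MEF2 is known to control in other cells, 1 rose and 3 fell at 24 h (11.0% and 12.7% of all probes). EGR1 fell by 2.70 (adjusted p = 1.39e-10), KLF2 by 1.58 (adjusted p = 2.9e-07) and JUN by 0.75 (adjusted p = 0.0103) there, while KLF4 rose by 0.74 (adjusted p = 8.88e-05). Later KLF2 rose by 0.56 to 1.49 and KLF4 fell by 0.37 to 1.46 in the 4 settings, and JUN fell by 2.50 and 1.77 in differentiation media. NR4A1 was too dim to be tested.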

How the data were processed

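RNA of 29 cultures was hybridized to 1-colour Agilent arrays of 62976 spots. The authors extracted intensity values with Agilent Feature Extraction 10.7.3.1 (per the file headers), as background-subtracted signals and a mark for signals well above background. They also deposited a matrix of quantile-normalized log2 values, made in Partek, which gives the main values here; each of its 29 columns matched its own array best (r at least 0.997), and its 140 control rows were left out. Scanner signals give an alternative. RefSeq accessions named 31104 of 58201 probes (symbols from GRCh38.p14; 14 array headers name hg19 and 15 no build). Groups come from the labels.

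One fit of 10 group means (R 4.3.3, limma 3.58.1, lmFit and eBayes, 2-sided, statmod 1.5.0 for blocks) covered the 38714 probes that 2 arrays or more showed well above background. Probes passed at a Benjamini-Hochberg adjusted p under 0.05 over all of them. Among a gene's tested probes, the brightest on average stands for it. Every member probe is named, and of each list at most the 6 genes with the largest change over 2-fold that passed; others were named after their values were seen. The 5 genes most like each member are those with the highest r. A gene below background on every array of 1 group is given as a bound. In simulated data for 48 h in growth media 200 probes were changed. Of these, 44 of 106 changed 2-fold and 72 of 94 changed 4-fold were recovered, with 6 false calls among 38714. In the real comparison 17549 probes were called, so these numbers do not give its recovery or its false calls. The number of arrays limits the precision. Alternatives are given at the end. Members and lists were chosen with earlier results of these data known.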

Additional observations from a re-analysis of the deposited data

Results flagged for a closer look

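The effect of ZNF148 siRNA differed between settings in 15 cases for the probe that stands for its gene, each by a contrast of 2 effects in limma at an adjusted p under 0.05. For MEF2A the effect was 2.22 higher at 48 h and 2.34 higher at 96 h than at 24 h in growth media, and it moved by -1.52 from 48 to 96 h in differentiation media and by -1.84 from growth to differentiation media at 96 h (log2, adjusted p from 3.91e-08 to 6.69e-06). At 24 h and at 96 h in differentiation media MEF2A fell, and in the other settings it rose. For MEF2B it moved by -0.33 and -0.41 from 24 to 48 and 96 h in growth media, by 0.38 from 48 to 96 h in differentiation media, and by -0.92 and -0.47 from growth to differentiation media at 48 and 96 h (adjusted p from 3.52e-06 to 0.0384). With normexp background correction the first 3 of these missed the threshold (-0.28, -0.31 and 0.29, adjusted p = 0.12, 0.0998 and 0.0985). Of the 5, probe 2 of MEF2B passed for the media, with -0.90 at the earlier hour and -0.62 at the later (adjusted p = 0.00134 and 0.0382).

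For MEF2C it was 4.19 and 4.55 higher at 48 and 96 h than at 24 h in growth media (adjusted p = 0.00125 and 0.00095), and the first was 5.65 without replicate 1 of the nontargeting cells at 48 h (adjusted p = 2.16e-14). For MEF2D it moved by -0.67 from 24 to 96 h and by -1.02 from 48 to 96 h in growth media, by -0.65 from 48 to 96 h in differentiation media, and by -0.70 from growth to differentiation media at 48 h (adjusted p from 0.000205 to 0.00234). Probe 2 of MEF2D passed in none of these 4, with values of -0.16, 0.00, 0.35 and -0.40 (adjusted p = 0.55, 1, 0.137 and 0.0867). Contrasts with 24 h set subconfluent cells against confluent ones, which cannot be told apart from time. Groups had at most 3 arrays, so no array was tested as standing apart.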

How the results depend on the processing

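The 20 effects of ZNF148 siRNA on the 4 genes (5 settings each) kept their direction and side of the threshold with quantile-normalized scanner signals, with no or a stricter filter, over 28 arrays, with trended and robust variances, with array weights (whose estimate gave a convergence warning), with only the arrays compared and with the methods' t-test unadjusted. After Benjamini-Hochberg adjustment that test lost MEF2C at 48 h in growth media (4.32, adjusted p = 0.099). Asking for more than 2-fold as well lost MEF2A at 24 h (-0.93) and at 96 h in differentiation media (-0.43), MEF2B at 24, 48 and 96 h in growth media (-0.35, -0.69 and -0.76), and MEF2D at 24 and 48 h in growth media (0.64 and 0.99) and at 48 and 96 h in differentiation media (0.29 and -0.36). It left 2 listed genes higher and 2 lower at 24 h, of 19 and 12, and 7 of 14 and 9 of 19 lower at 48 and 96 h in growth media and 8 of 24 lower at each hour in differentiation media. Scaling to the 75th percentile lost MEF2A at 96 h in differentiation media (-0.27, adjusted p = 0.144), where it moved the median of all probes from -0.04 to 0.10, and normexp lost MEF2D there (-0.28, adjusted p = 0.0578). The other probe lost MEF2B at 24 h (-0.37) and MEF2D at 24 h (0.11) and at 96 h in differentiation media (-0.10), and turned MEF2D at 48 h to -0.053 in growth media and -0.45 in differentiation media; the mean of both probes gave -0.082 in the last. Slide as a random block turned MEF2D at 96 h in growth media to 0.013. The cause was not tested for any of these.

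Leaving out 1 array at a time gave -0.49 to -0.35 for MEF2A at 96 h in differentiation media (lost in 2 of the fits), -0.098 to 0.034 for MEF2D at 96 h in growth media (sign turned in 2), and 0.24 to 0.32 for MEF2D at 48 h in differentiation media (lost in 4). Over 28 arrays, without replicate 1, the genes past the threshold went from 1 to 2 for the effects at 96 against 48 h in growth media, from 2 to 4 for the effects between media at 48 h and at 96 h, from 2 to 4 for the media in nontargeting cells at 48 h, from 0 to 2 for time in nontargeting cells in growth media, and from 1 to 2 for time with ZNF148 siRNA in differentiation media. For the media with ZNF148 siRNA at 48 h the count went from 0 to 1 over 28 arrays, with the 75th percentile and with slide as a block. Replicate numbers did not visibly pair the arrays. For this, each probe's group mean was first taken off its levels. What was left was compared between same-numbered arrays of the 2 siRNAs in a setting. It had correlations of -0.16 to 0.12 over 14 pairs, 1 of them over 0.1. With the replicate block, probes called at 48 h in growth media went from 17549 to 17176, and the MEF2C effect there was 4.32.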

Other observations

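Genes that mark smooth muscle, a tissue where MEF2 factors also act, changed as well. MYH11, the smooth muscle myosin, was not well above background on any nontargeting array at 96 h in growth media and 48 h in differentiation media, and ZNF148 siRNA raised it by at least 7.62-fold in the first and by at least 95.3-fold in the second (adjusted p = 0.000126 and 1.09e-08). ACTG2, an actin of visceral muscle, fell in 4 settings, by 0.67 at 24 h, by 5.42 at 48 h and 1.33 at 96 h in growth media and by 1.48 after 48 h in differentiation media, and rose by 5.68 after 96 h there. CNN1, calponin, was at least 1.54-fold lower at 24 h (adjusted p = 0.0232) and rose by 2.61 to 3.32 at 96 h in growth media and in differentiation media. In growth media the mean level of the 3 genes was 6.78 to 7.19 with nontargeting and 5.51 to 6.16 with ZNF148 siRNA at 24 h, 6.52 to 8.07 and 6.80 to 6.91 at 48 h, where the groups overlapped, and 6.47 to 7.09 and 8.81 to 9.06 at 96 h. In differentiation media it ran from 4.67 to 5.65 with nontargeting siRNA and from 7.76 to 10.50 with ZNF148 siRNA. Markers of other cell types changed too at 48 h in growth media. Of the fibroblast markers, THY1 fell by 3.01, COL1A1 rose by 2.43 (3.07 over 28 arrays) and PDGFRA rose by 0.31, while TCF21 did not pass. Of the neuron markers, SNAP25 fell by 2.46 and SYT1 by 0.57, while RBFOX3 did not pass. Of the endothelial markers, TEK fell by 0.63, while PECAM1 and CDH5 did not pass. How these changes relate to MEF2 was not tested.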
